A study of Mus musculus with 64 samples.

Results

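Baiap3, Doc2a, Stc2, Ghsr, Tcf24 and Abcd4 are 6 genes whose RNA level differed between AS and WT mice in at least 1 of 3 experiments, Ube3a and Ogn aside. They were looked up by symbol and Ensembl gene ID among the 55414 gene rows of the acute experiment and the 55573 gene rows of the continuous experiment. The members were selected on the genotype difference itself, which is therefore described here with its standard error and without a test. The effect of corticosterone (CORT) averaged over the genotypes did not take part in the selection and was tested.

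RNA-seq was performed on 64 libraries of adult male F1 hybrid mice aged 10 to 18 weeks, bred from C57BL/6J WT fathers and 129sv mothers that carry the Ube3a deletion on their paternal allele (Ube3a m+/p-). AS mice inherit the deleted allele from the mother (Ube3a m-/p+), which removes the UBE3A ubiquitin ligase from neurons, where the paternal allele is silent, and WT offspring carry no deletion. In the acute experiment, the hippocampus was collected 3 h after CORT (3 mg/kg) or vehicle was injected subcutaneously, with 6 WT vehicle, 6 WT CORT, 6 AS vehicle and 6 AS CORT mice. In the continuous experiment, hippocampus and liver came from the same 20 mice, 5 per group, which had carried a subcutaneous pellet with 20 mg CORT or a vehicle pellet for 5 days. The hippocampal libraries of WT vehicle mouse H13 and AS vehicle mouse H9 were left out of the fit, as the study did. The fit therefore held 4 vehicle mice of each genotype for that tissue. In whole tissue, fewer cells of a type and less RNA per cell cannot be told apart.

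Between 18612550 and 21783009 reads per library were counted on genes, so that 3 counts, taken as the floor for counting error, correspond to 0.14 to 0.16 CPM (normalized counts scaled to library size). The Ube3a count covers the whole gene and is no check of the deleted exon. Its AS minus WT log2 difference ranged from -0.06 to 0.14 over the 4 hippocampal comparisons (edgeR quasi-likelihood test, lowest adjusted p = 0.472) and was -0.55 with vehicle (adjusted p = 0.0191) and -0.48 with CORT (adjusted p = 0.0133) in liver. Markers of hippocampal cell fields were expressed in every hippocampal library and markers of hepatocytes in every liver library. Beside the libraries H9 and H13, which held high thalamus (1902 CPM, H9) and choroid plexus (13180 CPM, H13) marker sums, the continuous libraries H14 (253.6 CPM) and H4 (134.9 CPM) had the highest thalamus marker sums. In the acute experiment, 16 libraries had 1877 to 2237 reads set aside for low alignment quality, namely those of the 12 WT mice and of 4 AS vehicle mice. The other 8 had 2640 to 2850 such reads and came from the AS vehicle mice H17 and H18 and the 6 AS CORT mice, so that in CORT mice the division and the genotype cannot be told apart. Fits with the division as a covariate estimate it only from the 4 and 2 AS vehicle mice on its sides.

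The 6 genes belong to different pathways. Baiap3 is a relative of the Munc13 priming proteins that works in the trafficking of dense-core vesicles, which hold neuropeptides. Doc2a is a calcium sensor with C2 domains that promotes spontaneous and asynchronous transmitter release. Stc2 (stanniocalcin 2) is a secreted glycoprotein that blocks the protease PAPP-A and thereby limits the release of IGF from its binding proteins, and its gene is a target of the ATF4 arm of the stress response. Ghsr is the G protein-coupled receptor of ghrelin, the stomach hormone of hunger, and is present in the hippocampus, hypothalamus and pituitary. Abcd4 is an ATP-binding cassette transporter needed to move cobalamin (vitamin B12) out of lysosomes, unlike its peroxisomal relatives. Tcf24 is a transcription factor of the basic helix-loop-helix (bHLH) class, whose members bind DNA as dimers with E proteins such as Tcf3, Tcf4 and Tcf12. CORT, the main glucocorticoid of rodents, acts through the glucocorticoid and mineralocorticoid receptors.

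The genes lie on separate chromosomes of mm10, with Baiap3 on chromosome 17 (25242659 to 25256364, minus strand), Doc2a on chromosome 7 (126847416 to 126852705, plus strand), Stc2 on chromosome 11 (31357307 to 31370074, minus strand), Ghsr on chromosome 3 (27371351 to 27378010, plus strand), Tcf24 on chromosome 1 (9960163 to 9967932, minus strand) and Abcd4 on chromosome 12 (84601464 to 84617413, minus strand). Promoter sequences were found in RefSeq (GRCm38.p6) for 3 of the 6, and the 250 bases upstream of each RefSeq start are shown because these genes carry hippocampal genotype differences of opposite direction, with CG dinucleotides in capitals. The RefSeq start of Stc2 lies inside the gene extent given above, so the end of its window overlaps that extent.
Baiap3, chr17:25256365-25256614, minus strand: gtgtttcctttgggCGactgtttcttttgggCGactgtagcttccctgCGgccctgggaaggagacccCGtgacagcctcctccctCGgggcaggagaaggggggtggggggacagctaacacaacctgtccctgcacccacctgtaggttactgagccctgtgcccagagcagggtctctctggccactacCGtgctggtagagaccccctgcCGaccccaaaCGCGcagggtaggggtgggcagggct
Stc2, chr11:31370062-31370311, minus strand: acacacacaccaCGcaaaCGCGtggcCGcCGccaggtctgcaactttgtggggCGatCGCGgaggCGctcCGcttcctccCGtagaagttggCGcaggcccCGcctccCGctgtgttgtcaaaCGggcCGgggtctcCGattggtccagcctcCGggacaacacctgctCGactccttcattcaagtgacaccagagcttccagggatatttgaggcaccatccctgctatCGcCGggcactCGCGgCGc
Ghsr, chr3:27371101-27371350, plus strand: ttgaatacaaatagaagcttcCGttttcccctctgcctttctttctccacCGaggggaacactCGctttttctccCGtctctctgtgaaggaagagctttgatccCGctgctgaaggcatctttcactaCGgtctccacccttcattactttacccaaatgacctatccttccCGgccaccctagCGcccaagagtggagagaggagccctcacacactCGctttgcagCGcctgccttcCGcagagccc
The Stc2 window held 24 CG dinucleotides, the Ghsr window 11 and the Baiap3 window 9, against a median of 6 over all 32851 mouse promoter windows of this length. GC content was 64.4% for Baiap3 and Stc2 and 54% for Ghsr (median 52.4%). On either strand, the 3 windows held no match to the glucocorticoid receptor palindrome (held by 0.387% of all windows), its single arm AGAACA or TGTTCT, which can lie within the palindrome (16.1%), the cAMP response element TGACGTCA (1.55%) or the composite CEBP-ATF element TGATGNAA (3.45%). No match means only that these letters are not in these windows.

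Per kilobase of exon, Doc2a had the highest level of the 6 in the hippocampus of WT vehicle mice, with 5.67 ± 0.650 CPM per kb (mean ± SD, n = 6, acute experiment). Abcd4 (1.27 ± 0.134), Baiap3 (0.907 ± 0.179) and Stc2 (0.869 ± 0.152) followed, then Ghsr (0.440 ± 0.129), with Tcf24 at 0.0441 ± 0.0256 CPM per kb. In the liver of WT vehicle mice the order was Abcd4 (1.42 ± 0.0713 CPM per kb, n = 5), Tcf24 (0.979 ± 0.474), Baiap3 (0.0271 ± 0.0181) and Stc2 (0.0173 ± 0.0125). Doc2a and Ghsr had 0 counts in each of the 20 liver libraries, where 3 counts equal 0.144 to 0.160 CPM. Of the 6 genes, 5 passed the filter on low counts in each hippocampal set (Tcf24 did not) and 2 passed in liver (Tcf24 and Abcd4). Ghsr passed it only through the WT groups, since 1 library of each AS group exceeded 20 normalized counts, so its difference is tied to its passing.

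**Figure D1:**
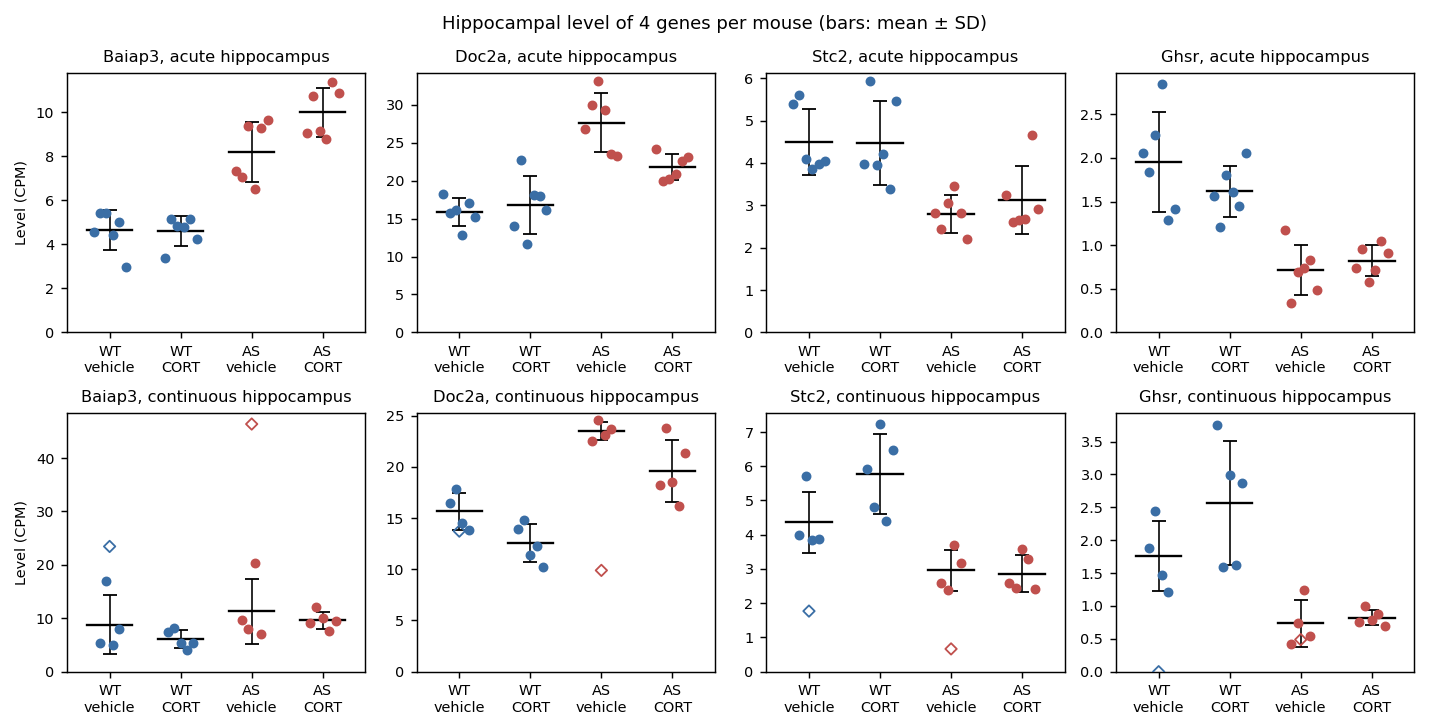
Level (CPM) of Baiap3, Doc2a, Stc2 and Ghsr in every hippocampal library of the acute (top) and continuous (bottom) experiments, by genotype and treatment, with bars for the group mean and SD, and with open diamonds for H9 and H13, which are outside the fit and the bars. Group means of Baiap3 and Doc2a are higher and those of Stc2 and Ghsr lower in AS mice within each treatment, and the groups of Baiap3 overlap in the continuous experiment.

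Among the release genes, Baiap3 in the acute experiment had a lowest, median and highest level of 2.98, 4.78 and 5.43 CPM in the WT vehicle group, against 6.53, 8.28 and 9.65 CPM in the AS vehicle group. With CORT these levels were 3.38, 4.82 and 5.16 CPM in the WT group, against 8.77, 9.93 and 11.3 CPM in the AS group. All 12 AS mice lay above all 12 WT mice. The AS minus WT log2 difference in Baiap3 was 0.82 (SE 0.13) with vehicle, a 1.76-fold difference, and 1.12 (SE 0.13) with CORT, or 2.17-fold. With the division by low alignment quality as a covariate, the CORT difference was 0.79 (SE 0.22) and the vehicle difference 0.70 (SE 0.14). Baiap3 shares 140 exon bases (2.74%) with Tsr3 on the other strand.

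In the continuous hippocampus, Baiap3 was 5.33, 16.9, 5.01 and 7.99 CPM in the WT vehicle mice H1, H4, H6 and H17 and 9.68, 7.93, 20.4 and 7.09 CPM in the AS vehicle mice H2, H11, H14 and H19. The WT CORT mice H3, H5, H12, H15 and H20 had 7.37, 8.20, 5.44, 4.02 and 5.42 CPM, and the AS CORT mice H7, H8, H10, H16 and H18 had 9.07, 12.1, 10.0, 7.63 and 9.51 CPM. The genotypes overlapped in both treatments, and 1 library of each vehicle group, H4 and H14, stood above the rest. AS minus WT, Baiap3 differed here by a log2 value of 0.35 (SE 0.35) with vehicle and 0.66 (SE 0.32) with CORT. Without H14 the vehicle difference was -0.10, without H4 it was 0.88, and without both it was 0.42 (SE 0.23).

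Baiap3 and the thalamus markers were both high in a few continuous libraries. H14 had 20.4 CPM of Baiap3 and a thalamus marker sum of 253.6 CPM, H4 had 16.9 CPM beside 134.9 CPM, and the left-out library H9 had 46.4 CPM beside 1902 CPM. The left-out library H13 had 23.5 CPM of Baiap3 with a thalamus marker sum of 60.67 CPM, together with 3321 CPM of striatum and 13180 CPM of choroid plexus markers. Hypothalamus markers summed to 330.3 CPM in H8, the AS CORT mouse with the highest Baiap3 (12.1 CPM), and to 251.4 CPM in H7 (9.07 CPM). They summed to 68.39 CPM in H15 and 17.33 CPM in H16, which had the lowest Baiap3 of the WT CORT (4.02 CPM) and AS CORT (7.63 CPM) groups. Acute thalamus marker sums were 77.05 to 84.67 CPM in the WT vehicle group, 72.33 to 87.86 CPM in the AS vehicle group, 73.33 to 165.1 CPM in the WT CORT group and 64.16 to 104.2 CPM in the AS CORT group. The acute library with the highest sum, WT CORT mouse H11 at 165.1 CPM, had 5.16 CPM of Baiap3, within the range of the other WT mice. The part of other brain regions in the Baiap3 values was not tested.

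**Figure D2:**
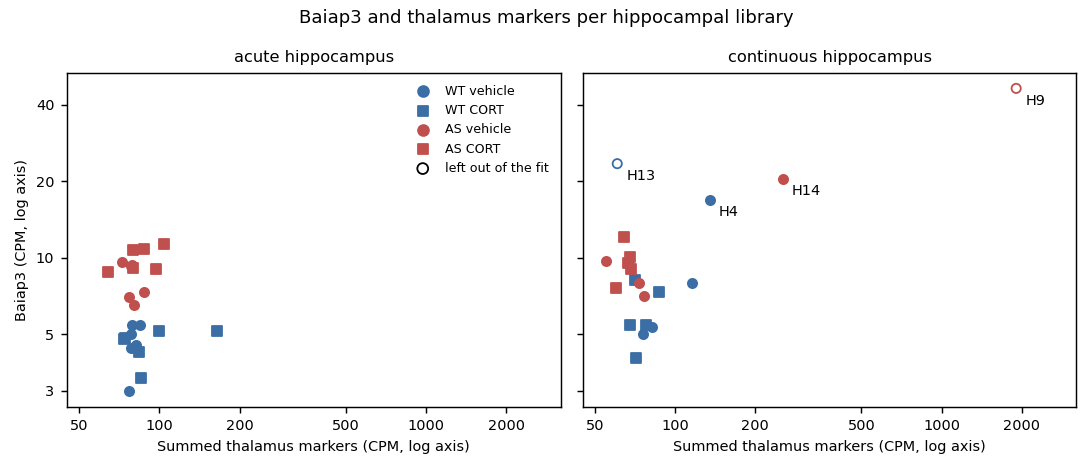
Baiap3 (CPM, log axis) against the summed level of 6 thalamus markers (CPM, log axis) in each hippocampal library, for the acute (left) and continuous (right) experiment, coloured by genotype. H14, H4 and the left-out H9 combine high Baiap3 with high thalamus markers, H13 has high Baiap3 without them, and the acute WT CORT library with the highest marker sum (165.1 CPM) has 5.16 CPM of Baiap3.

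Doc2a in the acute experiment had a lowest, median and highest level of 12.9, 15.96 and 18.2 CPM in the WT vehicle group, against 23.3, 28.1 and 33.1 CPM in the AS vehicle group. The WT CORT group had 11.6, 17.1 and 22.7 CPM, against 19.95, 21.8 and 24.2 CPM in the AS CORT group. The vehicle groups did not overlap, whereas the CORT groups overlapped through WT mouse H8, whose 22.7 CPM exceeded the next WT CORT value of 18.1 CPM. The log2 difference was 0.80 (SE 0.12) with vehicle and 0.38 (SE 0.12) with CORT (0.47 without H8). The difference between these differences was -0.42 (SE 0.16), a description, since it is built from the differences that chose the gene. AS vehicle mice H17 and H18, on the side of the division that holds the AS CORT mice, had 23.3 to 23.6 CPM, and the other 4 AS vehicle mice had 26.8 to 33.1 CPM. With the division as a covariate, the CORT difference was 0.73 (SE 0.19) and the vehicle difference 0.91 (SE 0.12).

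Doc2a in the continuous hippocampus was 16.5, 17.8, 14.5 and 13.8 CPM in the WT vehicle mice H1, H4, H6 and H17 and 22.5, 24.6, 23.1 and 23.7 CPM in the AS vehicle mice H2, H11, H14 and H19. The WT CORT mice H3, H5, H12, H15 and H20 had 13.9, 14.8, 11.4, 12.3 and 10.2 CPM, and the AS CORT mice H7, H8, H10, H16 and H18 had 18.2, 23.8, 18.5, 16.1 and 21.3 CPM. The genotypes did not overlap with either treatment. AS minus WT, Doc2a differed here by a log2 value of 0.58 (SE 0.12) with vehicle and 0.64 (SE 0.11) with CORT. The left-out libraries H9 (AS) and H13 (WT) had 9.89 and 13.7 CPM, and with all 20 mice the vehicle difference was 0.44 (SE 0.19).

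Doc2a shares 1103 exon bases (39.4%) with Ino80e, a subunit of a chromatin remodelling complex encoded on the other strand. The libraries were stranded, but whether the counting used strand is not given in the sources used here, so reads of the shared bases are uncertain. Ino80e itself differed by -0.14 (edgeR adjusted p = 0.411) with vehicle and -0.16 (adjusted p = 0.0478) with CORT in the acute experiment, and by -0.02 (adjusted p = 0.968) and -0.07 (adjusted p = 0.653) in the continuous hippocampus. In liver, Ino80e had 159 to 215 counts per library and Doc2a had 0.

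Of the secreted factor and the hormone receptor, Stc2 in the acute experiment had a lowest, median and highest level of 3.86, 4.07 and 5.61 CPM in the WT vehicle group, against 2.20, 2.82 and 3.46 CPM in the AS vehicle group. The WT CORT group had 3.37, 4.09 and 5.93 CPM, against 2.61, 2.79 and 4.67 CPM in the AS CORT group. The vehicle groups did not overlap, and the CORT groups overlapped through AS mouse H23, whose 4.67 CPM exceeded the next AS CORT value of 3.23 CPM. The log2 difference in Stc2 was -0.68 (SE 0.16) with vehicle and -0.52 (SE 0.16) with CORT. With the division as a covariate, the CORT difference was -0.29 (SE 0.30).

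Stc2 in the continuous hippocampus was 3.997, 5.71, 3.85 and 3.88 CPM in the WT vehicle mice H1, H4, H6 and H17 and 2.59, 2.38, 3.71 and 3.18 CPM in the AS vehicle mice H2, H11, H14 and H19. The WT CORT mice H3, H5, H12, H15 and H20 had 5.93, 4.80, 7.24, 4.39 and 6.49 CPM, and the AS CORT mice H7, H8, H10, H16 and H18 had 2.58, 2.46, 3.58, 3.28 and 2.41 CPM. Each AS mouse of the fit lay below each WT mouse, and the summed dentate gyrus granule cell markers, given with Ghsr for the vehicle mice, moved with Stc2. With CORT that sum was 260.1, 278.4, 309.9, 356.5 and 374 CPM in the AS mice H8, H18, H7, H16 and H10, of which H16 and H10 also had the highest Stc2. It was highest in the WT CORT mice H12, H3 and H20 (594.4, 537.2 and 436.7 CPM), as was Stc2, and the part of these markers in the Stc2 difference was not tested. The log2 difference was -0.56 (SE 0.19) with vehicle and -1.01 (SE 0.17) with CORT, a level 0.497 times that of WT mice. The left-out libraries H9 (AS) and H13 (WT) had 0.665 and 1.77 CPM, lower than the other mice.

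Ghsr had low counts, with 7 to 59 per library in the acute experiment. Its lowest, median and highest level was 1.29, 1.95 and 2.85 CPM in the WT vehicle group, against 0.342, 0.718 and 1.17 CPM in the AS vehicle group. The WT CORT group had 1.21, 1.59 and 2.05 CPM, against 0.580, 0.821 and 1.05 CPM in the AS CORT group. All 12 AS mice lay below all 12 WT mice. The log2 difference was -1.45 (SE 0.23) with vehicle and -0.97 (SE 0.23) with CORT, corresponding to levels 0.366 and 0.512 times those of WT mice.

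Ghsr in the continuous hippocampus was 1.88, 2.45, 1.48 and 1.22 CPM in the WT vehicle mice H1, H4, H6 and H17 and 0.417, 0.733, 1.24 and 0.545 CPM in the AS vehicle mice H2, H11, H14 and H19. The WT CORT mice H3, H5, H12, H15 and H20 had 3.75, 1.58, 2.998, 1.62 and 2.87 CPM, and the AS CORT mice H7, H8, H10, H16 and H18 had 0.752, 0.992, 0.790, 0.879 and 0.696 CPM. The vehicle groups overlapped only through H14 and H17, and the CORT groups did not overlap. AS minus WT, Ghsr differed here by a log2 value of -1.26 (SE 0.34) with vehicle and -1.64 (SE 0.29) with CORT. The left-out libraries H9 (AS) and H13 (WT) had 11 and 0 Ghsr counts. The summed level of 5 dentate gyrus granule cell markers followed Ghsr in most of these libraries. It was 436, 646.4, 374.8 and 365.7 CPM in the WT vehicle mice H1, H4, H6 and H17 and 214.7, 313.9, 524.6 and 316.5 CPM in the AS vehicle mice H2, H11, H14 and H19. With CORT it ranged from 309.3 to 594.4 CPM in the WT group, with H3, H12 and H20 highest as for Ghsr, and from 260.1 to 374 CPM in the AS group, where H8 had the lowest sum and the highest Ghsr. In the acute experiment, where Ghsr was also lower in AS mice, the sum was 235.1 to 581.8 CPM in WT vehicle, 293.6 to 571.4 CPM in AS vehicle, 287.3 to 702.3 CPM in WT CORT and 461 to 896 CPM in AS CORT libraries. Hypothalamus markers, another site of Ghsr, summed to 251.4 CPM in H7 and 330.3 CPM in H8, both AS CORT mice, to 68.39 CPM in WT CORT mouse H15 and to 17.33 CPM in AS CORT mouse H16. The part of these markers in the Ghsr difference was not tested. Across libraries, after removal of the group means, Stc2 and Ghsr correlated with r = 0.27 in the 24 acute libraries and r = 0.65 in the 18 continuous libraries, a description over points that share library and dissection.

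**Figure D3:**
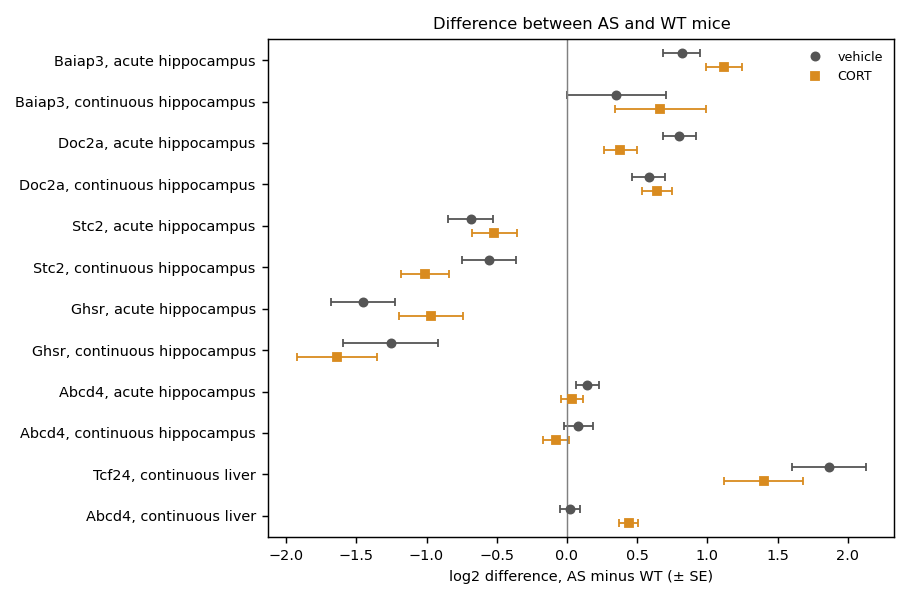
AS minus WT log2 difference of each gene with vehicle and with CORT, with SE bars, in the experiments where the gene passed the filter on low counts. Baiap3 and Doc2a lie above 0 and Stc2 and Ghsr below 0 in both hippocampal sets, Tcf24 lies above 0 in liver with both treatments, and Abcd4 lies above 0 in liver with CORT (0.44) and near 0 with vehicle (0.02).

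In the liver, Tcf24 was 5.53, 2.11, 3.49, 6.78 and 2.60 CPM in the WT vehicle mice L1, L4, L6, L13 and L17 and 18.0, 10.995, 18.1, 14.1 and 13.5 CPM in the AS vehicle mice L2, L9, L11, L14 and L19. The WT CORT mice L3, L5, L12, L15 and L20 had 1.49, 2.41, 2.38, 3.02 and 1.89 CPM, and the AS CORT mice L7, L8, L10, L16 and L18 had 4.77, 7.69, 4.46, 5.25 and 7.38 CPM. The genotypes did not overlap with either treatment, and the AS vehicle mice stood above the other 3 groups. Tcf24 differed between AS and WT mice by a log2 value of 1.87 (SE 0.26) with vehicle, a 3.65-fold difference, and 1.40 (SE 0.28) with CORT, or 2.64-fold. Tcf24 shares 619 exon bases (14.8%) with E330040D14Rik on the other strand, which had 0 to 6 counts in the liver libraries.

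In the hippocampus, Tcf24 had 0 to 10 counts per library in the acute experiment and 0 to 11 in the continuous fit, and did not pass the filter. Its mean was 0.185 ± 0.107 CPM in WT vehicle and 0.325 ± 0.167 CPM in AS vehicle mice (SD, n = 6), and 0.293 ± 0.100 and 0.241 ± 0.123 CPM with acute CORT. In the continuous experiment the means were 0.311 ± 0.167 (WT vehicle, n = 4), 0.322 ± 0.127 (AS vehicle, n = 4), 0.176 ± 0.106 (WT CORT, n = 5) and 0.299 ± 0.186 CPM (AS CORT, n = 5). The genotypes overlapped with each treatment in both hippocampal sets, and the highest AS value was 0.511 CPM.

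Abcd4 in the liver was 11.2, 10.5, 11.8, 11.9 and 11.4 CPM in the WT vehicle mice L1, L4, L6, L13 and L17 and 11.7, 10.7, 11.6, 11.9 and 11.6 CPM in the AS vehicle mice L2, L9, L11, L14 and L19. The WT CORT mice L3, L5, L12, L15 and L20 had 22.5, 23.5, 29.9, 26.3 and 26.4 CPM, and the AS CORT mice L7, L8, L10, L16 and L18 had 34.0, 34.5, 35.1, 34.1 and 36.8 CPM. The vehicle groups overlapped, while each AS CORT mouse lay above each WT CORT mouse. AS minus WT, Abcd4 differed by a log2 value of 0.02 (SE 0.070) with vehicle and 0.44 (SE 0.067) with CORT, or 1.36-fold. The CORT effect was 1.18 (SE 0.070) in WT and 1.60 (SE 0.070) in AS mice, a difference between genotypes of 0.42 (SE 0.097). This value is a description, since it is built from the genotype differences that chose the gene. Over all 12273 tested liver genes, 0 were higher and 0 lower past the threshold for such a difference in edgeR. The sum of 5 blood cell markers moved with both factors, at 342.6 to 573.5 CPM in WT vehicle, 243.1 to 474.6 CPM in AS vehicle, 228.6 to 327.9 CPM in WT CORT and 124.4 to 192 CPM in AS CORT livers. The CORT groups did not overlap in this sum, 1 of the 5 markers passed between them, and the part of blood in the Abcd4 values was not tested.

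In the hippocampus, Abcd4 did not separate the genotypes. Its lowest, median and highest acute level was 8.31, 10.4 and 11.4 CPM in the WT vehicle group and 10.1, 11.04 and 13.5 CPM in the AS vehicle group. With CORT it was 10.7, 11.2 and 13.6 CPM for the WT genotype, against 11.1, 11.8 and 12.6 CPM for the AS genotype. The log2 difference was 0.15 (SE 0.081) with vehicle and 0.04 (SE 0.080) with CORT. In the continuous experiment, Abcd4 ranged from 12.5 to 16.9 CPM over the 18 mice, and the difference was 0.08 (SE 0.10) with vehicle and -0.08 (SE 0.093) with CORT.

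**Figure D4:**
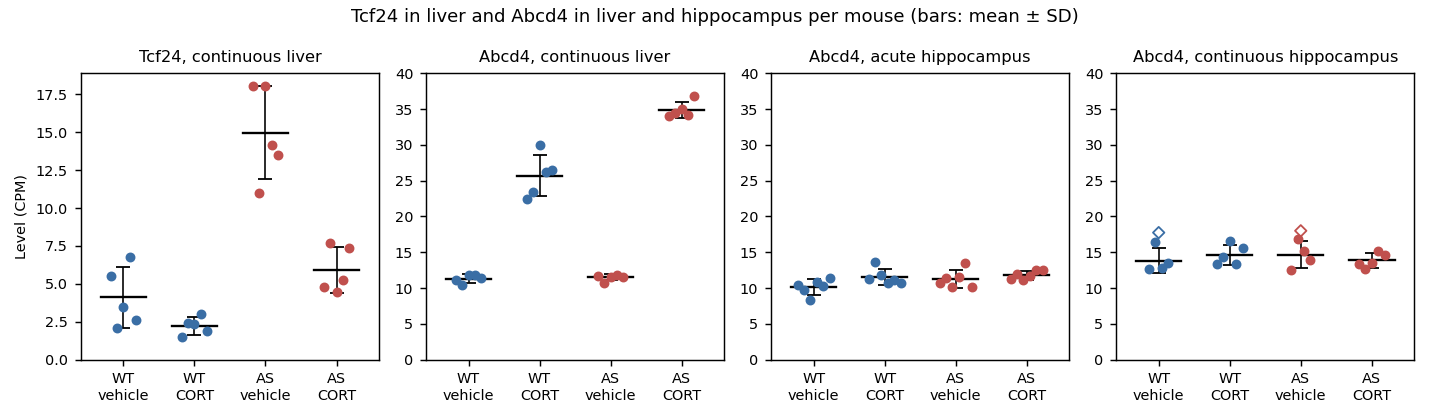
Level (CPM) of Tcf24 in liver and of Abcd4 in liver and both hippocampal sets, 1 point per mouse by genotype and treatment, with bars for the group mean and SD and open diamonds for H9 and H13, which are outside the fit and the bars. Liver Tcf24 is higher in AS mice and lower with CORT, and liver Abcd4 is higher with CORT, with the AS CORT mice at 33.99 to 36.80 CPM, whereas the hippocampal groups of Abcd4 overlap between genotypes.

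The remaining liver levels were near the floor. Baiap3 had 0 to 6 counts and Stc2 0 to 4 counts per liver library, with means of 0.139 ± 0.0924 and 0.0897 ± 0.0647 CPM in WT vehicle mice (SD, n = 5), and the genotypes overlapped in both genes. The differences of Baiap3, Doc2a, Stc2 and Ghsr seen in hippocampus were therefore not detectable in liver at this depth.

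Ordered by group mean over the 12 groups, Baiap3 and Doc2a ran from AS to WT hippocampal groups and then to liver, and neighbours in that order overlapped except at the step to liver. The continuous WT vehicle group of Baiap3, 8.80 ± 5.56 CPM, was the exception and lay above the acute AS vehicle group (8.19 ± 1.38 CPM). For Stc2 the 4 WT hippocampal groups (4.36 to 5.77 CPM) came before the 4 AS groups (2.80 to 3.13 CPM), with overlap between all hippocampal neighbours. Ghsr had a step without overlap between the lowest WT group (1.62 CPM) and the highest AS group (0.823 CPM). Tcf24 was ordered as AS vehicle liver, AS CORT liver, WT vehicle liver, WT CORT liver and then hippocampus, with no overlap after the first and the fourth. Abcd4 was highest in AS CORT liver and then in WT CORT liver, neither of which overlapped the next group, followed by the 4 continuous hippocampal groups (13.83 to 14.63 CPM), while the acute hippocampal and vehicle liver groups (10.2 to 11.8 CPM) overlapped in order. Values set across experiments come from separately normalized tables.

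As a description of how the genes were selected, 3 of the 5 tested members passed an adjusted p of 0.05 between genotypes with vehicle and 4 of 5 with CORT in the acute experiment, where 0.157% and 24.9% of the 14611 tested genes did. In the continuous hippocampus these counts were 0 of 5 and 3 of 5, against 0.0134% and 0.0401% of 14949 genes. In liver they were 1 of 2 and 2 of 2, against 0.0163% and 0.277% of 12273 genes. The selecting adjusted p closest to the threshold was 0.0457 inside it (Ghsr, continuous CORT) and 0.0854 outside it (Stc2, acute vehicle). Groups did not overlap for 4 and 2 of 5 members in the acute experiment with vehicle and CORT (0.746% and 11.1% of all tested genes), for 2 and 3 of 5 in the continuous hippocampus (4.01% and 2.13%), and for 1 and 2 of 2 in liver (1.64% and 2.18%).

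CORT, averaged over the genotypes, lowered Tcf24 and raised Abcd4 in liver. Abcd4 rose by 1.39 (SE 0.049) on the log2 scale, 2.62-fold, with an adjusted p of 5.51e-14 in edgeR's quasi-likelihood test, and each of the 10 CORT mice lay above each of the 10 vehicle mice. Tcf24 fell by 1.11 (SE 0.19, adjusted p = 0.000129), with effects of -0.87 (SE 0.29) in WT and -1.34 (SE 0.26) in AS mice. Both genes passed where 37.1% of the genes tested in liver did. Some marker sums moved with CORT in the same livers. The lists for meninges and CA1 pyramidal cells were chosen for brain and do not mark those cell types in liver. The sum of the 8 meninges genes was 296.1 to 398.3 CPM in vehicle and 437.3 to 500.8 CPM in CORT livers, without overlap. The sum of the CA1 genes was 219.7 to 242.4 CPM and 263.9 to 295.6 CPM, also without overlap. The blood marker sum, given with Abcd4 above, was lower with CORT within each genotype. Hepatocyte markers summed to 91770 to 122000 CPM with vehicle and 95130 to 138200 CPM with CORT. The part of these markers in the CORT effects was not tested.

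In the continuous hippocampus, Doc2a fell by 0.29 (SE 0.080, edgeR adjusted p = 0.0249), with effects of -0.32 (SE 0.11) in WT and -0.26 (SE 0.11) in AS mice. It was the 1 of 5 tested members past the threshold, where 9.67% of genes passed. The call was lost without H1 (adjusted p = 0.0537), H4 (0.0590), H11 (0.0557) or H12 (0.0501), without both H4 and H14 (0.0640), and with all 20 mice (-0.18, adjusted p = 0.427). The effect was -0.28 to -0.25 in the first 5 of these fits. Ghsr (0.35, SE 0.22, adjusted p = 0.393), Stc2 (0.18, SE 0.13, adjusted p = 0.476), Baiap3 (-0.38, SE 0.24, adjusted p = 0.387) and Abcd4 (0.0019, SE 0.070, adjusted p = 0.991) did not pass. The Baiap3 effect was -0.11 without H4, -0.15 without H14, 0.11 without both and -0.93 with all 20 mice. In the last 2 of these fits Stc2 was at 0.32 and 0.39 and Ghsr at 0.64 and 0.57, and Ghsr was at 0.54 without H14. None of these values passed.

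Acute CORT changed 0 of the 5 tested members past the threshold in edgeR, against 7.02% of all genes, and 0 in DESeq2, while 1 had an unadjusted p under 0.05. That gene was Abcd4, with a log2 effect of 0.13 (SE 0.057, adjusted p = 0.203). The effects of Baiap3 (0.14, 95% interval -0.06 to 0.33) and Doc2a (-0.13, 95% interval -0.30 to 0.04) were of similar size, and those of Stc2 (0.08, -0.16 to 0.31) and Ghsr (-0.03, -0.38 to 0.32) had wider intervals. Doc2a had a CORT effect of 0.08 (SE 0.12) in WT and -0.34 (SE 0.11) in AS mice, Baiap3 one of -0.01 (SE 0.14) and 0.29 (SE 0.12), and Ghsr one of -0.27 (SE 0.20) and 0.21 (SE 0.26), given as a description. All 6 AS CORT mice but 2 of the 6 AS vehicle mice lay on the upper side of the division by low alignment quality, so CORT and the division cannot be told apart in most of the AS mice. With the division as a covariate, the averaged effect was 0.033 for Baiap3, -0.013 for Doc2a and 0.16 for Stc2, and none of these passed. Without WT vehicle mouse H6 that of Baiap3 was 0.084.

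**Figure D5:**
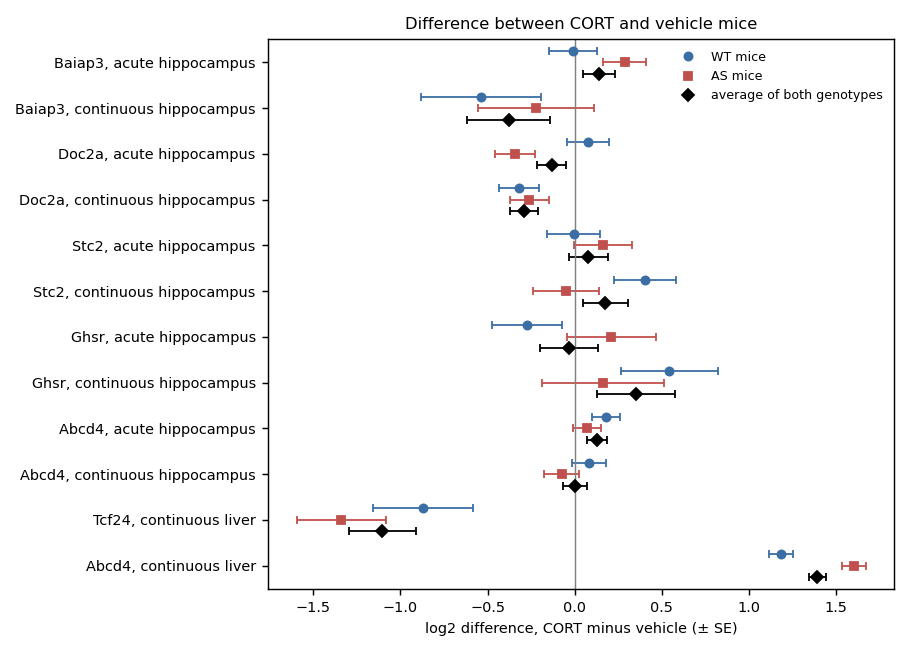
CORT minus vehicle log2 difference of each gene in WT mice, in AS mice and averaged over the genotypes, with SE bars, in the experiments where the gene passed the filter on low counts. The liver effects of Abcd4 (1.39) and Tcf24 (-1.11) and the continuous hippocampal effect of Doc2a (-0.29) are the averaged effects past the threshold.

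The pathways around the members were represented by 84 related genes in 8 lists, of which 75, 74 and 58 were tested in the acute hippocampus, continuous hippocampus and liver. With vehicle, 0 of the related genes differed between genotypes in any of the 3 sets in edgeR, while 9, 12 and 10 had an unadjusted p under 0.05. DESeq2 called 0 in the acute set, 1 in the continuous hippocampus (Igfbp6) and 1 in liver (Abcd2). With CORT, 24 of 75 differed in the acute set (5 higher and 19 lower in AS mice, beside 24.9% of all genes), 0 in the continuous hippocampus (12 at an unadjusted p under 0.05, and Igfbp6 in DESeq2) and 0 in liver (8 at an unadjusted p under 0.05, and Tcn2 and Vldlr in DESeq2). With the division by low alignment quality as a covariate, 0 of the 75 passed in the acute CORT mice. That covariate is estimated only from the AS vehicle mice, and standard errors of the CORT differences of Baiap3, Doc2a and Stc2 rose with it. The loss of these calls therefore cannot tell the division from the genotype.

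In the acute CORT mice, the Munc13 family and dense-core vesicle list around Baiap3 had 1 of 11 higher and 4 lower in AS mice, with a median log2 difference of -0.09 beside 0.00 over all genes. The counts of each list in the acute CORT mice, here and below, stand beside 24.9% of all genes past the threshold, and a share near that is not a result about the list. Among the 4 lower genes of the Munc13 list were the fusion proteins Vamp2 (-0.38, SE 0.072) and Stx1a (-0.42, SE 0.10), opposite in sign to Baiap3. Of the 12 calcium sensors and release regulators around Doc2a, 3 were lower (median -0.16), namely the complexin Cplx1 (-0.44, SE 0.091), the vesicle GTPase Rab3a (-0.23, SE 0.056) and Syt3 (-0.23, SE 0.057). Adjusted p-values of the 5 genes named ranged in edgeR from 0.000733 (Vamp2) to 0.00534 (Rab3a and Syt3).

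Among 10 tested genes of the stanniocalcin, PAPP-A and IGF binding list, 1 was higher and 3 were lower in AS CORT mice (median -0.11). The IGF-binding proteins Igfbp4 (-0.68, SE 0.13) and Igfbp2 (-0.35, SE 0.11) and the IGF1 receptor Igf1r (-0.34, SE 0.079) were lower, and Igfbp6 (0.53, SE 0.15) was higher. Of 9 tested ATF4 stress response genes, 1 was higher and 5 were lower (median -0.23), among them the transcription factor Atf4 (-0.29, SE 0.072), Sesn2 (-0.49, SE 0.089), the chaperone regulator Xbp1 (-0.34, SE 0.079) and asparagine synthetase Asns (-0.23, SE 0.056). In the ghrelin system list, 2 of 6 tested genes were lower (median -0.07), the neuropeptide Npy (-0.54, SE 0.11) and the dopamine receptor Drd2 (-0.41, SE 0.14).

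Around Abcd4, 2 of 11 cobalamin genes were higher and 1 was lower in AS CORT mice (median 0.03). The cobalamin carrier Tcn2 (-0.35, SE 0.087) was lower, and the cobalamin-dependent enzymes Mut (0.18, SE 0.061) and Mtr (0.24, SE 0.089) were higher. Of 10 tested bHLH partners and relatives of Tcf24, 0 passed (median -0.07).

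In liver, the ABCD transporter list had a median CORT effect of -0.20, beside 0.00 over all genes. The peroxisomal transporters Abcd2 (-1.62, SE 0.24) and Abcd3 (-0.35, SE 0.070) fell, in contrast in sign to Abcd4. Of 11 cobalamin genes, 2 rose (median 0.09), Tcn2 (0.52, SE 0.059) and the mitochondrial Mmaa (0.21, SE 0.053). The bHLH list had 5 of 8 genes lowered and 0 raised (median -0.57), among them the inhibitors of bHLH dimers Id2 (-0.66, SE 0.12) and Id3 (-0.80, SE 0.27), Tcf21 (-0.54, SE 0.14) and the E protein Tcf3 (-0.18, SE 0.061), as did Tcf24. These lists stood beside 37.1% of all liver genes past the threshold, and the adjusted p-values of the genes named ranged from 1.05e-06 (Tcn2) to 0.0254 (Id3 and Tcf3) in edgeR.

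CORT also moved single related genes in hippocampus. In the continuous experiment, Igfbp2 fell by 0.75 (SE 0.11), Igfbp6 rose by 0.48 (SE 0.10) and Igf1r rose by 0.19 (SE 0.051), so that 3 of 9 tested genes of the Stc2 list passed. Over the 8 lists, 8 of 74 related genes passed there, beside 9.67% of all genes. The leptin receptor Lepr fell by 1.26 (SE 0.36), 1 of 7 tested in the ghrelin list. Ddit4 rose by 0.54 (SE 0.059), 1 of 9 tested in the ATF4 stress response list. The highest choroid plexus marker sums of this fit were in the WT vehicle mice H17 (2930 CPM) and H6 (1285 CPM). The sum was 86.56 to 332.4 CPM in AS vehicle mice. With CORT it was 36.88 to 129.9 CPM in WT and 46.8 to 513.8 CPM in AS mice. The part of these markers in the CORT effects was not tested. In the acute experiment, Ddit4 rose by 0.28 (SE 0.076) and Mtrr by 0.22 (SE 0.055), and Abcd2 and Tcf12 fell by 0.14 (SE 0.040) and 0.13 (SE 0.040), which were the related genes past the threshold, 4 of 75 beside 7.02% of all genes.

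Few genes next to the members passed the test between genotypes outside the acute CORT mice. Of 24 tested neighbours, 1 differed between genotypes with vehicle in the acute experiment, Syndig1l beside Abcd4 (0.49, SE 0.095, edgeR adjusted p = 0.0281). With acute CORT, 4 were higher (Hirip3 beside Doc2a at 0.41, Cpeb4 beside Stc2 at 0.28, and Mcmdc2 at 0.79 and Cspp1 at 0.35 beside Tcf24) and 2 were lower (Fam57b at -0.45 and Ino80e at -0.16, beside Doc2a), where 24.9% of all genes passed. In the continuous hippocampus 0 of 24 passed with either treatment (3 and 5 at an unadjusted p under 0.05, and 0 in DESeq2). In liver, 0 of 19 passed with vehicle (2 at an unadjusted p under 0.05, and 0 in DESeq2) and 1 with CORT, Gnptg beside Baiap3 (0.29, SE 0.059, adjusted p = 0.0447). In the test of CORT averaged over the genotypes, 3 of 24 neighbours passed in the acute hippocampus (7.02% of all genes), 3 of 24 in the continuous hippocampus (9.67%) and 6 of 19 in liver (37.1%).

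The genes whose hippocampal pattern was most like each member were found by the lower of 2 correlations of log2 CPM after removal of the group means, over the 24 acute and the 18 continuous libraries, among 14418 genes. Points of these correlations share library, depth and dissection. For Baiap3 the lower r was 0.79 with Hdac6, 0.76 with Kirrel3 and 0.76 with Atp6v1c2. Doc2a was most like Tspan7 (0.77), Rit1 (0.75) and Rgs12 (0.73), and Stc2 most like Mtmr12 (0.80), Pald1 (0.76) and Lhfpl2 (0.76). Ghsr had lower values, with Phf2 (0.65), Dgkh (0.60) and Foxk1 (0.60), as had Abcd4 with A130014A01Rik (0.68), Rnf32 (0.65) and Ccnl2 (0.63).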

How the data were processed

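Raw counts per gene, made by the authors with STAR (mm10) and HTSeq-count, were deposited without normalization. The annotation release and the strand setting of counting are not given in the sources used here. Symbols and positions came from GENCODE M21, for 52133 of 55414 IDs in the acute and 55480 of 55573 in the continuous table. Rows of reads on no gene (11.74% to 23.29% of a library) were left out.

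Samples were grouped by their labels, and 0 columns belonged to no sample. In R 4.3.3, a gene was tested when 3 or more replicates of a group exceeded 20 median-of-ratios normalized counts, with edgeR 4.0.16 (TMM, quasi-likelihood, 1 coefficient per group, Benjamini-Hochberg adjustment over all genes tested, threshold 0.05). CPM are TMM-scaled, with a prior count of 2 for log2 values. Floors of 3 counts cover counting error only. Replicates are separate mice.

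The members and lists were chosen with earlier results of these data known. Named genes were the members, up to 4 related genes per list and comparison with the smallest p among those past the threshold, neighbours past it (the nearest 2 tested on each side), the 3 genes most alike and Ube3a. Some of these genes are not reported here. Alternatives were the DESeq2 1.42.0 test and size factors, no filter, all 20 mice, each mouse left out, and the division of the acute libraries. The fit was tested on simulated data.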

Additional observations from a re-analysis of the deposited data

Results flagged for a closer look

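Among 48 groups of member values, 3 held a sample far from the rest of its group, where chance gives about 1 in 20 groups. Stc2 in the acute AS CORT mouse H23 was 4.67 CPM, with 3.23 CPM as the nearest other value, in the acute library with the highest summed dentate gyrus markers (896 CPM) and the lowest summed CA1 markers (384.5 CPM). Stc2 in the continuous WT vehicle hippocampus H4 was 5.71 CPM, with 3.997 CPM as the nearest, in the library of the continuous fit with the highest dentate gyrus sum (646.4 CPM) and the lowest CA1 sum (162.8 CPM), whose thalamus marker sum was also high. The part of these markers in both values was not tested. Abcd4 in the liver of AS vehicle mouse L9 was 10.7 CPM, with 11.6 CPM as the nearest.

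The hippocampal libraries left out of the fit held Baiap3 above the highest WT vehicle value of 16.9 CPM, with 46.4 CPM in AS vehicle mouse H9 and 23.5 CPM in WT vehicle mouse H13. Abcd4 was also above its highest WT vehicle value of 16.4 CPM, with 18.0 CPM in H9 and 17.7 CPM in H13. The part of other brain regions in these values was not tested.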

How the results depend on the processing

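Genotype differences of the 6 genes gave 612 values over the alternatives, of which 610 moved by less than the spread between mice (1 SD of the gene's log2 CPM within groups). That spread is wide for Baiap3 in the continuous hippocampus, where the vehicle difference ran from -0.10 without H14 to 0.88 without H4. The sign also turned for Abcd4, at -0.076 with acute CORT and the low alignment quality division as a covariate, and at -0.0061 in vehicle livers without L4. The 2 that moved further came with the same covariate, 0.79 for Baiap3 and 0.73 for Doc2a with CORT. The same covariate took the related genes called with acute CORT from 24 to 0, in a fit that cannot tell the division from the genotype in CORT mice. Of the 306 CORT effects, 283 kept their direction and side of the threshold and 6 of Doc2a lost the call. The members called in the continuous hippocampus went from 1 to 0 with all 20 mice and with H4 and H14 also left out, an alternative chosen after seeing the data, and ranged from 0 to 1 with each mouse left out. Related genes called in the continuous hippocampus numbered 1 with vehicle and 1 with CORT under DESeq2 and also with no filter, 1 with CORT without H4 and H14, and 0 to 1 for both treatments with each mouse left out. In liver they numbered 1 with vehicle and 2 with CORT under DESeq2, and 0 to 0 and 0 to 1 with each mouse left out. In the acute CORT mice they numbered 18 to 25 with each mouse left out. Among the CORT effects, 17 values changed sign, none of them past the threshold: Ghsr acute 0.024 with the covariate and -0.10 to 0.065 with each mouse left out, Stc2 acute -0.00065 without H23, Baiap3 continuous 0.11 without H4 and H14, and Abcd4 continuous -0.067 with all 20 mice and -0.032 to 0.051 with each mouse left out. The cause was not tested. Depth limits the genes with few counts, among them Ghsr with 7 to 81 per hippocampal library of the fit and Tcf24 with 0 to 11. No paired analysis was possible because the groups compared share no replicate numbers.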
